A study of Mus musculus with 24 samples.

Results

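The SENP proteases were followed through the differentiation of 3T3-L1 cells as the 7 genes Senp1, Senp2, Senp3, Senp5, Senp6, Senp7 and Senp8, out of 26995 gene symbols measured. The genes were chosen by symbol. Each was represented by 1 of its 3′UTR entries, the one with the highest mean total read count over the 24 libraries, and the 7 genes together held 26 of the 91830 entries. 3T3-L1 is an established line of mouse embryonic fibroblasts that turns into fat cells when dexamethasone, 3-isobutyl-1-methylxanthine and insulin are added in fetal bovine serum. The cells were harvested 2 days before this induction (day -2, pre-adipocytes) and on day 1, day 3 and day 7 after it, with either the solvent DMSO or 0.5 µM ML-792 in the medium. ML-792 inhibits the SUMO-activating enzyme, so it blocks the attachment of SUMO to proteins. The 8 groups of treatment and day held 3 biological replicates each, A, B and C, and every culture was labeled with 100 µM of 4-thiouridine for 45 min before harvest. All groups are the same cell line, so nothing here speaks of fat cells in an animal.

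SUMO is a small protein that is joined to lysines of other proteins, many of them nuclear, by an E1 enzyme (Sae1 and Uba2), an E2 enzyme and E3 ligases. SENPs are the cysteine proteases that work on the other side of this cycle: they trim the SUMO precursors to their mature form and cut SUMO off its substrates. Senp1 and Senp2 handle all SUMO forms, Senp3 and Senp5 are nucleolar enzymes that prefer SUMO-2/3, Senp6 and Senp7 shorten SUMO-2/3 chains, and Senp8 belongs to the family by sequence but removes the related modifier NEDD8.

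QuantSeq primes at poly(A) tails, so its reads lie near the 3′ ends of transcripts, which need not be the ends of the annotated entries. On the mm10 assembly these entries were the 3′UTRs at chr15:98038744-98042889 on the minus strand for Senp1, chr16:22046696-22049243 on the plus strand for Senp2, chr11:69673110-69673525 on the minus strand for Senp3 and chr16:31959670-31963426 on the minus strand for Senp5. Those of Senp6 and Senp7 lay on the plus strand at chr9:80143863-80144780 and chr16:56188373-56190011, and that of Senp8 lay on the minus strand at chr9:59734259-59737166. The last 50 bases of each entry were searched on the transcript strand for the poly(A) signals AATAAA and ATTAAA, which mark where a transcript can be cleaved and tailed. A signal was found for 5 of the 7 genes, and 64.4% of the 26052 entries searched held one. The stretches of 30 bases around these signals, read from the GRCm38.p6 genome with the hexamer in capitals, are shown because they mark the annotated 3′ ends of the entries.
Senp1: tttatttaaAATAAAttctgtggattttgc
Senp3: cctgctctggtcAATAAAggatcctttgaa
Senp5: atttttttgaaaAATAAActaaataccttt
Senp7: tgttttcaattcATTAAAttgtaatttttt
Senp8: tattttataataAATAAAtgcaatgtcaat
Senp7 was the only one of these 5 whose signal shown is ATTAAA, a form found in 14.9% of all entries searched against 52.5% for AATAAA. In Senp2 and Senp6 neither hexamer was in the last 50 bases.

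The 24 libraries held 13554718 to 27013352 total reads and 115709 to 820046 labeled reads, that is, reads with a T-to-C conversion. The labeled share was 2.71% to 3.67% at day -2 and 0.786% to 1.36% on the later days. In DMSO the total reads of all 9 adipocyte markers rose and those of all 6 tested pre-adipocyte markers fell by day 3 and day 7. Of the 4 markers of dividing cells, 3 rose at day 1 and 4 fell at day 7. In ML-792 at day 3, 4 of the 6 pre-adipocyte markers were higher than in DMSO, 3 of the 9 adipocyte markers were lower and 1 was higher, and 2 of the 4 markers of dividing cells were lower. At day 7, 3 pre-adipocyte markers were higher and 1 lower, as were 3 and 1 of the adipocyte markers. The part of these shifts in the results on the Senp genes was not tested. In these bulk samples, fewer cells of a type and less RNA per cell cannot be told apart.

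Replicate B stood apart from A and C. Spearman correlations of total reads between replicates of a group were 0.965 to 0.990 for A with C and 0.935 to 0.975 for the pairs with B. The total reads of 21.6% of the 13274 genes tested lay on the same side of the group mean in all 8 B libraries, against 11.0% in A and 14.8% in C. Senp1 was one of these genes, and some results are also given without B.

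Over the DMSO time course, 2 of the 7 Senp genes changed in total reads at an adjusted p below 0.01 on at least 1 day against day -2, and 51.8% of the 12773 genes tested did. Senp2 rose on day 3 and day 7 and Senp5 fell on day 7. On day 1 the number of Senp genes called was 0 of 7 with 17.7% of all genes called, on day 3 it was 1 with 37.9%, and on day 7 it was 2 with 39.8%. On day 1, Senp1 and Senp5 had an unadjusted p below 0.05, and DESeq2 called 0 Senp genes on that day. The shares of all genes for these counts were not computed. The median log2 fold change of the 7 genes was 0.12 on day 1, -0.24 on day 3 and -0.34 on day 7, where that of all tested genes was 0.042, 0.064 and 0.0033.

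**Figure D1:**
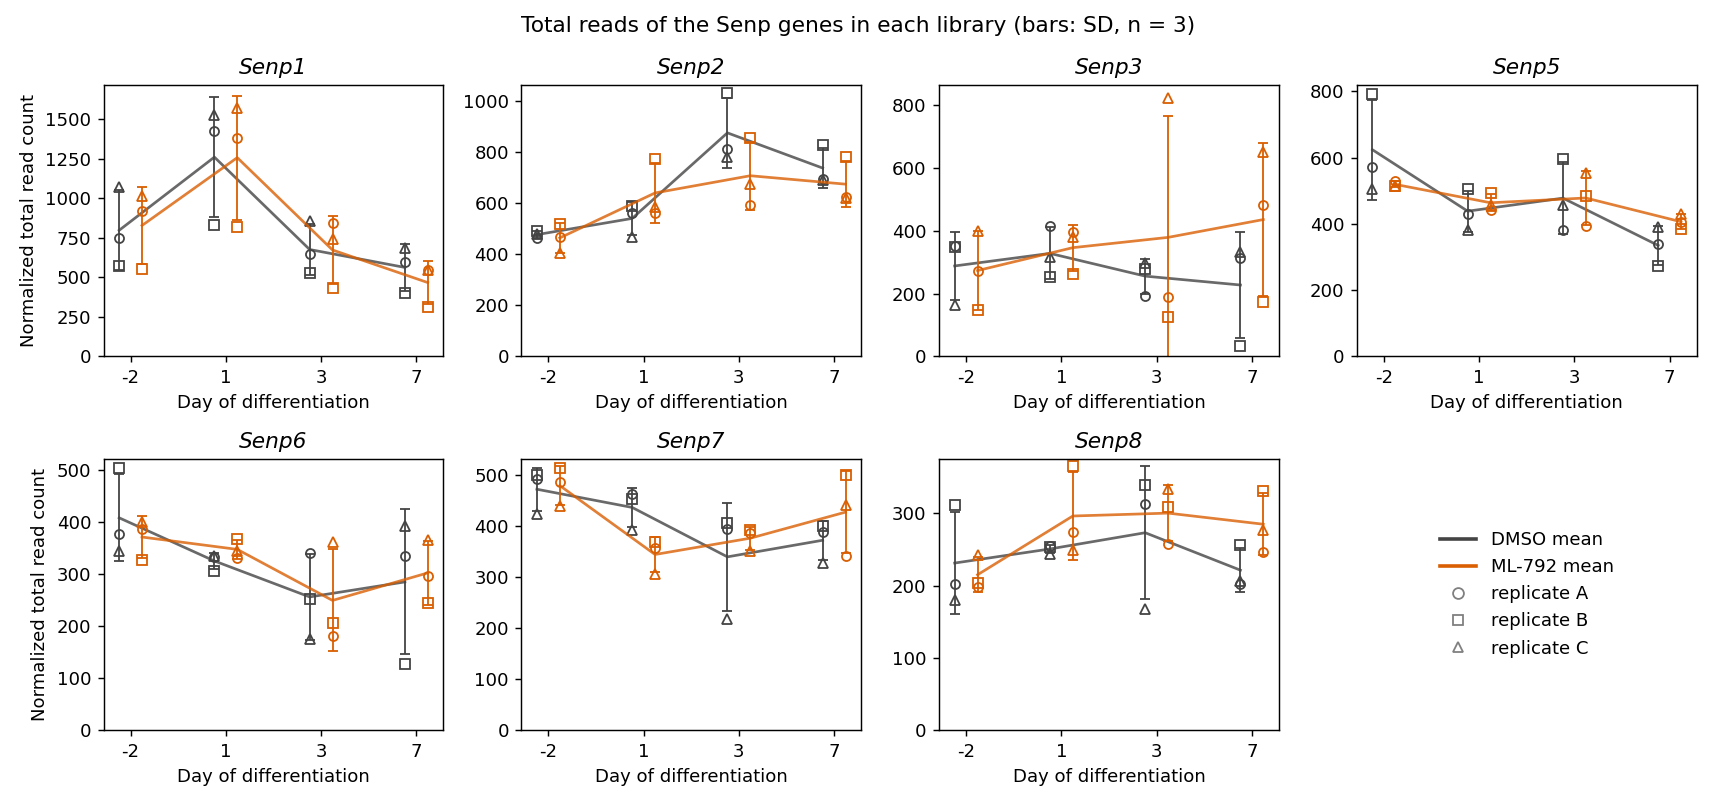
Normalized total read counts (y axis, from 0) of the 7 Senp genes on each day (x axis, evenly spaced) in DMSO (gray) and ML-792 (orange), with 1 symbol per library (circle A, square B, triangle C), lines through the means and bars for the SD of 3 libraries, cut at 0 for Senp3. Senp2 rises from about 477 reads at day -2 to 875 at day 3 in DMSO, Senp1 peaks on day 1 in both treatments, and Senp3 spreads from 34.3 to 824 reads.

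Senp1 and Senp2 moved differently. Senp2, a protease of the nuclear envelope, was the member with the most stable replicates. In DMSO its A, B and C libraries held 462, 491 and 478 normalized total reads at day -2, 562, 591 and 469 at day 1, 813, 1032 and 782 at day 3, and 696, 826 and 690.4 at day 7. Every library of day 3 and of day 7 lay above every library of day -2. The group mean rose from 477 ± 14.3 (SD, n = 3) to 875 ± 136 at day 3, a log2 fold change of 0.88 ± 0.17 (SE), with an adjusted p of 0.000615 in edgeR's quasi-likelihood test. At day 7 the mean was 738 ± 77.1, and the log2 fold change was 0.63 ± 0.17 (adjusted p = 0.00646, edgeR). Most of the rise fell between day 1 and day 3, when Senp2 was 1 of 7 Senp genes called (24.3% of all genes, log2 fold change 0.70 ± 0.17, adjusted p = 0.00533 in edgeR). This call was lost without replicate A (adjusted p = 0.0882), without C (0.0733) and with no filter on low counts (0.0171, all edgeR). Left without replicate A, Senp2 at day 3 had an adjusted p of 0.032 (edgeR) with a log2 fold change of 0.90, and without replicate C the p was 0.0108 with 0.94, so that the call was lost each time. The day 7 call was lost in the same way, with an adjusted p of 0.102 without A and 0.0424 without C (edgeR). Without replicate B both calls held, at adjusted p of 0.00082 and 0.00652 in edgeR.

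With ML-792, Senp2 held 468, 520.4 and 404 reads in A, B and C at day -2, 562, 773 and 585 at day 1, 593, 855 and 675 at day 3, and 623, 779 and 622 at day 7. All 9 later libraries again lay above all 3 of day -2. The day 3 log2 fold change of 0.61 ± 0.18 missed the threshold with an adjusted p of 0.0132 (edgeR).

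Senp1, the protease best known for SUMO-1 maturation and removal, was read most on day 1. In DMSO the A, B and C libraries held 748, 573 and 1072 normalized total reads at day -2, 1425, 829 and 1527 at day 1, 646, 529 and 854 at day 3, and 599, 402 and 688 at day 7. With ML-792 they held 919.6, 551 and 1014 at day -2, 1381, 817 and 1573 at day 1, 846, 434 and 739.6 at day 3, and 544, 312 and 546 at day 7. In both treatments each replicate was highest on day 1, while the 3 libraries of a day spread so widely that day 1 overlapped day -2. The mean log2 fold change of day 1 against day -2 was 0.66 ± 0.29 (SE) in DMSO and 0.60 ± 0.32 in ML-792, with adjusted p of 0.113 and 0.167 in edgeR. At day 7 it was -0.50 ± 0.29 in DMSO (adjusted p = 0.171, edgeR) and -0.83 ± 0.32 in ML-792 (adjusted p = 0.0486, edgeR), and without the replicate letter in the model none of these passed the threshold. From day 1 to day 3 in DMSO the log2 fold change was -0.90 ± 0.29 (adjusted p = 0.0281, edgeR), which did not pass and did so without replicate B (-0.98, adjusted p = 0.00135, edgeR).

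The spread of Senp1 followed the replicate letter. Its B library was below the group mean in 8 of 8 groups, with a mean deviation of -0.50 on the log2 scale, and its C library was above it in 8 of 8, with a mean of 0.33. Senp2 and Senp7 went the other way, with B above the group mean in 8 of 8 groups and mean deviations of 0.19 and 0.13.

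**Figure D2:**
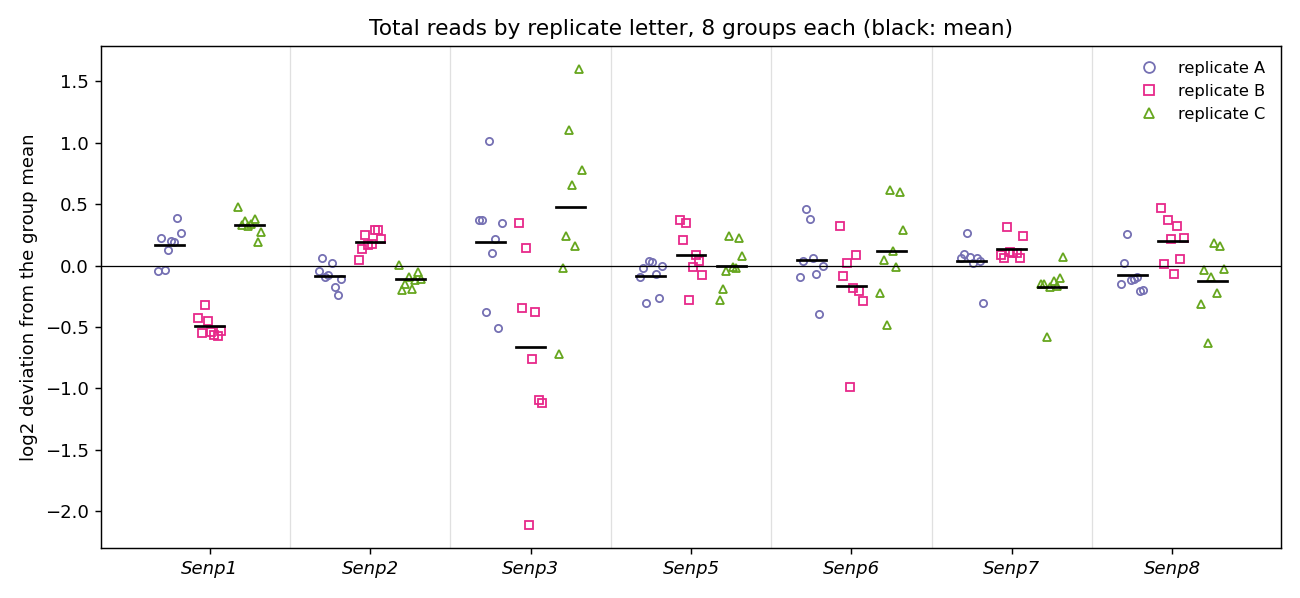
Deviation of each library's log2 normalized total reads from its group mean (y axis) for the 7 Senp genes (x axis), split by replicate letter (purple circles A, pink squares B, green triangles C), with 8 groups per letter and the mean of each letter as a black bar. All 8 B libraries lie below 0 for Senp1 and above 0 for Senp2 and Senp7, and the libraries of Senp3 reach from -2.11 to 1.60.

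Over the ML-792 time course, 0 of the 7 Senp genes passed the adjusted p of 0.01 in total reads, where 57.6% of the 12733 genes tested did. This count came from edgeR without the replicate letter in the model. An unadjusted p below 0.05 on at least 1 day was found for 6 of the 7 genes, and DESeq2 called 1 gene, Senp2. The share of all genes was not computed for either count. In the ML-792 libraries the same letter deviated together between day -2 and each of the 3 later days, so the fit was also made with the letter as a replicate block. That fit called 4 of the 7 Senp genes, against 76.3% of all genes. Senp1 rose on day 1 by 0.60 ± 0.10 (log2, SE; adjusted p = 2.41e-05, edgeR) and fell on day 7 with -0.82 ± 0.11 (adjusted p = 1.88e-07, edgeR). Senp2 rose on day 1, day 3 and day 7, with log2 fold changes of 0.46, 0.60 and 0.54 and a largest adjusted p of 0.00141 (edgeR). Senp7 fell on day 1 with -0.48 ± 0.14 (adjusted p = 0.00448, edgeR), and Senp6 fell on day 3 with -0.61 ± 0.17 (adjusted p = 0.00305, edgeR). Without replicate B and with no block, 2 genes were called, Senp1 on day 1 and day 7 and Senp2 on day 3. For that fit the share of all genes called was not computed.

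**Figure D3:**
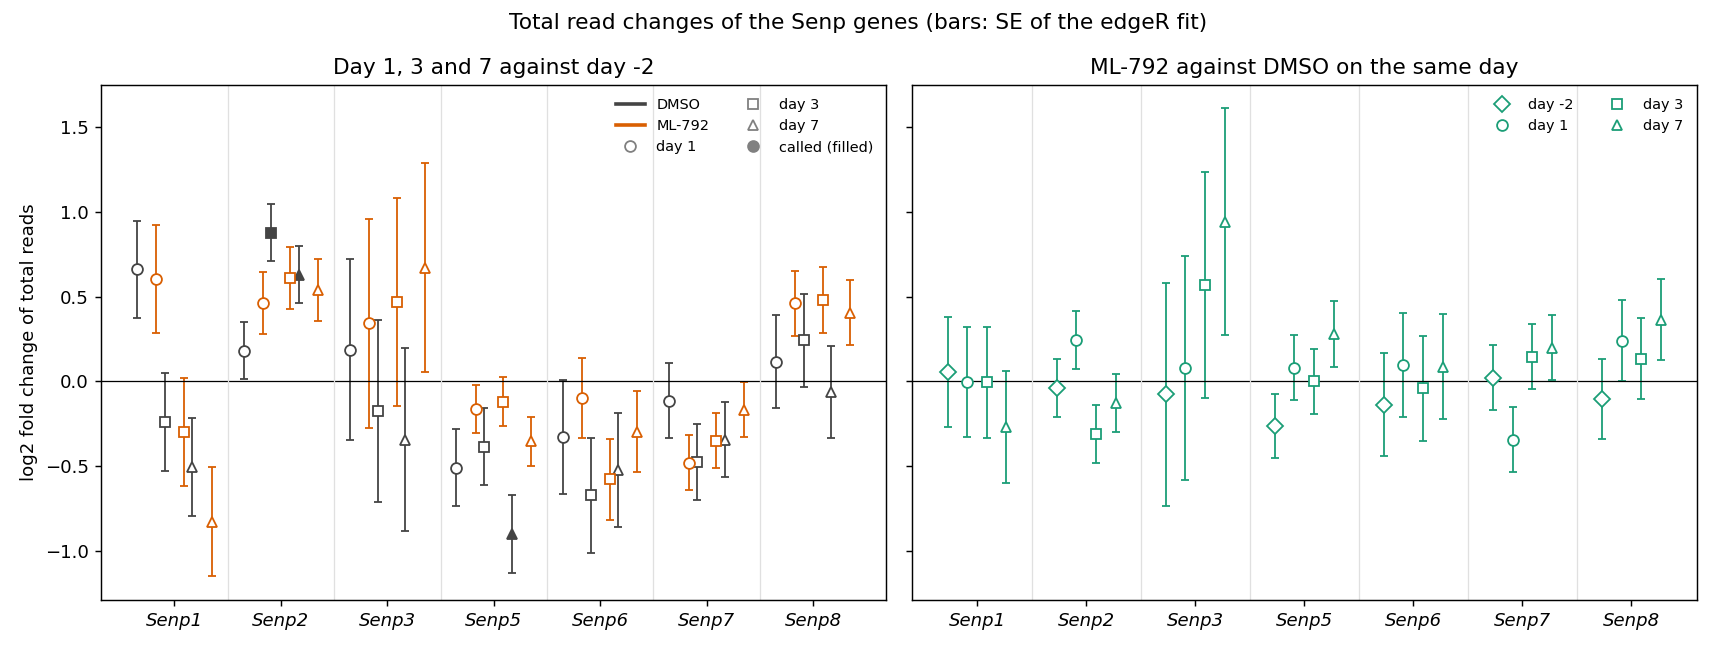
Log2 fold changes of total reads (y axis) for the 7 Senp genes (x axis), on the left for day 1, 3 and 7 against day -2 in DMSO (gray) and ML-792 (orange) and on the right for ML-792 against DMSO on each day (green), with diamonds for day -2, circles for day 1, squares for day 3, triangles for day 7, bars for the SE of the edgeR fit and filled symbols for called values. Only Senp2 at days 3 and 7 and Senp5 at day 7 in DMSO are filled, and Senp3 has the widest bars.

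Of the nucleolar pair, Senp5 fell. In DMSO its A, B and C libraries held 573, 793 and 505 normalized total reads at day -2, 429.7, 504 and 381 at day 1, 380.4, 596 and 456 at day 3, and 341, 273 and 391 at day 7. The day 1 and day 7 libraries all lay below those of day -2, and day 3 overlapped them. The mean went from 623 ± 151 (SD, n = 3) at day -2 to 335 ± 59.5 at day 7, a log2 fold change of -0.90 ± 0.23 (SE) with an adjusted p of 0.00476 in edgeR. Leaving out a replicate ended this call each time: the log2 fold change was -0.97 without A, -0.56 without B and -1.16 without C, and the adjusted p was 0.053, 0.0162 and 0.0125 (edgeR).

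With ML-792, Senp5 held 529.7, 514 and 514 reads at day -2, 442, 492 and 457 at day 1, 395, 484 and 555 at day 3, and 405, 384 and 429 at day 7. The day 7 libraries again all lay below those of day -2, with a smaller log2 fold change of -0.35 ± 0.14 that did not pass (adjusted p = 0.058, edgeR). The ML-792 and DMSO libraries overlapped on every day.

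Senp5 had 12 entries, and its reads did not all lie at the 3′ end. An entry of 1521 bases at chr16:31961906-31963426, the part of its 3′UTR farthest from that end, held a mean of 136 reads per library. The next best covered entry, 181 bases at chr16:32002992-32003172 at the other end of the gene, held 263 to 946 total reads per library with a mean of 428, against 262 to 900 and a mean of 474 for the whole 3′UTR entry. This second entry comes from a non-coding transcript model of the gene, and its reads cannot be assigned to a 3′ end from these counts. In DMSO its log2 fold change at day 7 was -0.46 ± 0.20 and did not pass (adjusted p = 0.0724, edgeR). Senp2 had no other entry with different counts, so its chosen entry was kept when the next entry of a gene stood in. In that setting 1 Senp gene, Senp2, was called over the DMSO time course, with its values unchanged.

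Senp3, which removes SUMO-2/3 from factors of ribosome assembly, had the least repeatable counts of the family. In DMSO its A, B and C libraries held 353, 348 and 165 normalized total reads at day -2, 417, 253 and 317 at day 1, 193, 278 and 298 at day 3, and 315, 34.3 and 334 at day 7. With ML-792 they held 272, 149 and 401 at day -2, 396, 262 and 382 at day 1, 189, 126 and 824 at day 3, and 484, 174 and 652 at day 7. Replicate B was the lowest of the 3 libraries on every day in ML-792, and 1 library, B of day 7 in DMSO, was far below all others. The SD of log2 values within groups was 0.97, higher than in 99.8% of the 4005 genes whose mean log2 level lay within 1 of its own. Across Senp1, Senp2, Senp5, Senp6, Senp7 and Senp8 it ranged from 0.19 in Senp2 to 0.46 in Senp1. A 193-base entry nested in the 416 bases of Senp3 held 11 to 45 raw reads per library, where the longer entry held 33 to 664. In total reads, the largest log2 difference of any Senp gene between ML-792 and DMSO was that of Senp3 at day 7, 0.94 ± 0.67 (SE), and with this spread it did not pass (adjusted p = 0.525, edgeR).

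Of the chain-editing pair, Senp6 held 377, 504 and 346 normalized total reads in A, B and C at day -2 in DMSO, 334, 307 and 336 at day 1, 342, 252 and 176 at day 3, and 335, 128 and 394 at day 7. The libraries of day 1 and day 3 all lay below those of day -2, and day 7 overlapped them. With ML-792 the 12 libraries of Senp6 ranged from 181 to 402. Its lowest mean was on day 3 in both treatments, 257 ± 82.9 (SD, n = 3) in DMSO and 249.9 ± 98.3 in ML-792, with log2 fold changes of -0.67 ± 0.34 and -0.57 ± 0.24 (SE) and adjusted p of 0.124 and 0.0606 in edgeR.

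Senp7 held 493, 501 and 424 reads at day -2 in DMSO, 464, 454 and 393 at day 1, 395, 407 and 219 at day 3, and 389, 401 and 329 at day 7. With ML-792 it held 487, 514 and 439 at day -2, 358, 369.9 and 307 at day 1, 386, 393 and 351 at day 3, and 341, 499.9 and 443 at day 7. Its low point came on day 3 in DMSO and on day 1 in ML-792. On day 1 all ML-792 libraries lay below all DMSO libraries, with a log2 difference of -0.34 ± 0.19 that did not pass (adjusted p = 0.447, edgeR).

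Senp8, the NEDD8 protease, moved little in DMSO, where its libraries held 203, 311 and 180.2 normalized total reads in A, B and C at day -2, 255, 254 and 244 at day 1, 313, 339 and 168 at day 3, and 202, 256 and 206 at day 7. Every later day overlapped day -2. The means were 231 ± 69.9, 251 ± 5.76, 273 ± 92.2 and 221 ± 30.1 (SD, n = 3) on these days, and the log2 fold changes against day -2 were 0.12, 0.24 and -0.06 (lowest adjusted p = 0.505, edgeR). With ML-792 its libraries held 198, 204 and 243 reads at day -2, 274, 365 and 249 at day 1, 258, 309 and 334 at day 3, and 247, 331 and 277 at day 7. All of these later libraries lay above those of day -2. The log2 fold changes in ML-792 were 0.46, 0.48 and 0.40, each ± 0.19 (SE), and none passed (lowest adjusted p = 0.0524, edgeR).

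Between ML-792 and DMSO on the same day, 0 of the 7 Senp genes differed in total reads at an adjusted p below 0.1, where 25.0% of the 13274 genes tested did on at least 1 day. At day -2, 0 of the 13274 genes were called. For the Senp genes, both the count at an unadjusted p below 0.05 in edgeR and the count called by DESeq2 were 0 as well. With the letter as a replicate block, 3 of the 7 genes had an unadjusted p below 0.05 (edgeR), and 1, Senp2 at day 3, was called. With no filter on low counts 1 was called, Senp3 at day 7. The share of all genes called was not computed for these alternative fits. The interaction of day and treatment was called for 0 of 7 Senp genes, where 12% of all genes were called, and again 0 had an unadjusted p below 0.05 and DESeq2 called 0. The median log2 difference of the 7 genes was -0.075, 0.081, 0.001 and 0.20 at day -2, 1, 3 and 7. That of all genes was -0.011, -0.0078, -0.0064 and 0.0059. The SE of a daily difference was 0.17 to 0.19 in Senp2, Senp5 and Senp7 and 0.66 to 0.67 in Senp3. Senp2 at day 3 had the lowest adjusted p of the family, with 875 ± 136 reads (SD, n = 3) in DMSO and 708 ± 134 in ML-792 and a log2 difference of -0.31 ± 0.17 (SE; adjusted p = 0.339, edgeR).

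Labeled reads mark RNA made during the 45 min of 4-thiouridine, with conversions from sequencing errors counted in. They were few for the Senp genes. Summed over 24 libraries they numbered 380 for Senp1, 294 for Senp5, 230 for Senp2, 217 for Senp7, 138 for Senp6, 130 for Senp8 and 114 for Senp3. Senp6 had 0 labeled reads in 8 libraries, Senp3 in 6 and Senp8 in 5. They were scaled with the factors of the total reads, so that a fall of labeled RNA in the whole library is kept. The median log2 change of all tested genes against day -2 was then -1.14 to -1.52 in DMSO and -1.31 to -1.70 in ML-792.

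**Figure D4:**
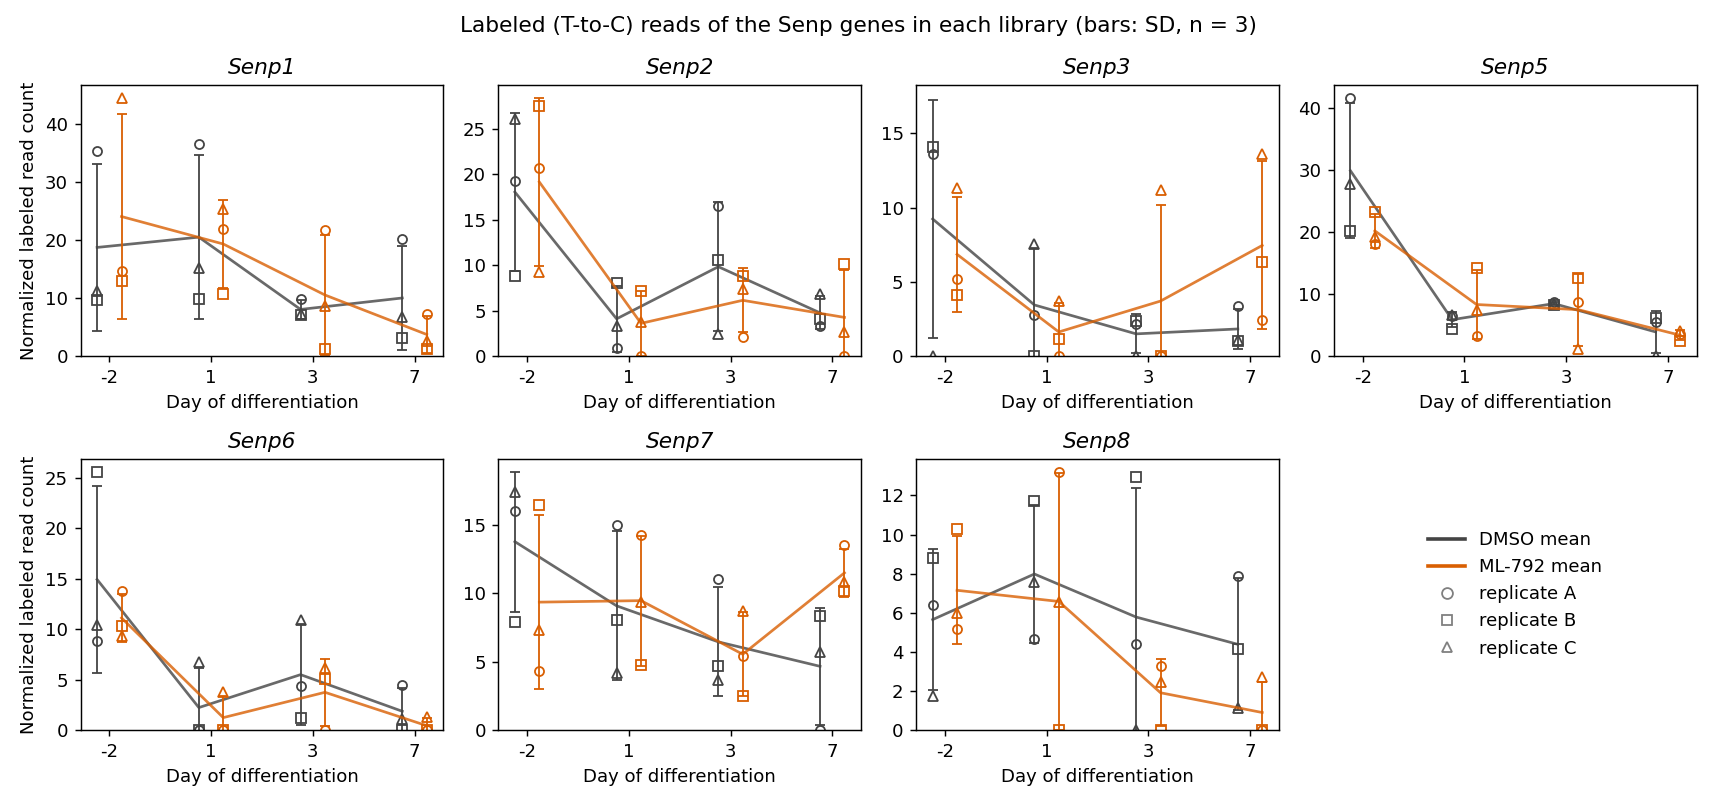
Normalized labeled read counts (y axis, from 0) of the 7 Senp genes on each day (x axis, evenly spaced) in DMSO (gray) and ML-792 (orange), with 1 symbol per library (circle A, square B, triangle C), lines through the means and bars for the SD of 3 libraries, cut at 0. Senp5 lies between 18.1 and 41.7 in the 6 libraries of day -2 and at 14.3 or below later, and the Senp7 libraries of ML-792 at day 7 lie among those of day -2.

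Of the 5 Senp genes that passed the filter on low labeled counts in DMSO, 1, Senp5, was called, where 45.5% of the 5596 genes tested were. Senp3 and Senp8 did not pass this filter. Senp5 passed it through day -2, where its raw labeled counts were 52, 23 and 32, against 0 to 8 in every later DMSO library, so the filter itself favors a fall. Labeled Senp5 reads in DMSO were 41.7, 20.3 and 27.9 in A, B and C at day -2, 6.55, 4.50 and 6.74 at day 1, 8.82, 8.23 and 8.51 at day 3, and 5.62, 6.25 and 0 at day 7. No later library reached any library of day -2. The log2 fold change was -2.31 ± 0.70 (SE) at day 1 (adjusted p = 0.00932 in edgeR, 20.5% of all genes called) and -2.87 ± 0.74 at day 7 (adjusted p = 0.00191 in edgeR, 32.4% of all genes called). As a share of its own total reads, labeled Senp5 went from 4.87% (95% exact Clopper-Pearson interval 4.01% to 5.86%, reads of 3 libraries summed) at day -2 to 1.21% (0.606% to 2.15%) at day 7. Such intervals cover counting error only. Without replicate A or without C the number of Senp genes called was 0, and without B it was 2, Senp5 at day 7 and Senp2 at day 1. The day 1 call of Senp5 was lost without any one replicate (adjusted p of 0.19 without A, 0.0128 without B and 0.0336 without C, edgeR) and with no filter on low counts (0.0201). The day 7 call held with no filter (adjusted p = 0.00306, edgeR). Senp1, Senp2, Senp6 and Senp7 were not called on any day, and the lowest adjusted p among them was 0.0358, for Senp6 at day 7 with -2.93 (edgeR). Raw labeled counts of Senp6 were 11, 29 and 12 at day -2 against 0 to 9 later, so the filter can favor a fall here too.

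In ML-792, 3 Senp genes passed the filter on labeled counts, Senp1, Senp5 and Senp7, and 2 were called, where 59.0% of the 4607 genes tested were. Both calls were at day 7, when 48.2% of all genes were called. Labeled Senp1 reads were 14.7, 13.0 and 44.5 in A, B and C at day -2 and 7.37, 1.27 and 2.72 at day 7, with a log2 fold change of -2.62 ± 0.76 (SE; adjusted p = 0.00348, edgeR). Labeled Senp5 reads were 18.1, 23.3 and 19.2 at day -2 and 3.68, 2.54 and 4.07 at day 7, with -2.52 ± 0.76 (adjusted p = 0.00473, edgeR). Here too Senp5 passed the filter through day -2, so that the filter favors a fall. Its raw labeled counts were 21, 34 and 29 at day -2, against 1 to 12 in the later ML-792 libraries. Labeled Senp7 reads were 4.31, 16.5 and 7.30 at day -2 and 13.5, 10.2 and 10.9 at day 7, with 0.28 ± 0.70 (adjusted p = 0.726, edgeR). The day 7 libraries of Senp1 and Senp5 lay below all those of day -2, and those of Senp7 overlapped them. Without replicate A or B the number called was 1, Senp1, and without C it was 0. With no filter on low counts the Senp5 call was lost as well (adjusted p = 0.0113, edgeR). Scaled by the labeled reads themselves, 0 Senp genes were called in either treatment, and the day 7 log2 fold changes of Senp5 became -1.70 in DMSO and -1.33 in ML-792.

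In Senp2 at day 7 in DMSO, total and labeled reads were ordered in opposite ways. Its total reads were higher than at day -2 in every library, as given above, while its labeled reads were 19.2, 8.81 and 26.1 at day -2 and 3.37, 4.16 and 6.82 at day 7. The labeled reads of the 2 days did not overlap either, with day 7 the lower. At day 3 in DMSO and at day 7 in ML-792 the labeled Senp2 reads overlapped those of day -2. In ML-792 the opposite order was also seen at day 1 and day 3. There, labeled Senp2 reads were 20.7, 27.5 and 9.29 at day -2. At day 1 they were 0, 7.16 and 3.75, and at day 3 they were 2.18, 8.88 and 7.45. Senp2 did not pass the filter for a labeled test in ML-792. At day 7 in DMSO the log2 fold change of labeled Senp2 reads was -1.89 ± 0.82 (SE; adjusted p = 0.0526, edgeR), which did not pass and lay within 1 SE of the median of all genes. The labeled share of Senp2 reads was 3.80% (2.94% to 4.83%) at day -2 and 0.644% (0.343% to 1.10%) at day 7. Senp8 in ML-792 was ordered in the same way, with total reads above those of day -2 and labeled reads of 5.18, 10.3 and 5.97 at day -2, 3.26, 0 and 2.48 at day 3, and 0, 0 and 2.72 at day 7. The labeled reads of both later days lay below those of day -2, and Senp8 did not pass the filter for a test. Between ML-792 and DMSO, 0 of 7 Senp genes differed in labeled reads, where 2.75% of 6214 genes did on at least 1 day, and the interaction was called for 0 of 7, where 0.290% of genes were called. Counts at an unadjusted p below 0.05 and by DESeq2 were 0 for both. Among the 7 genes on 4 days, labeled Senp7 reads at day 7 were the only case where the treatments did not overlap. They were 0, 8.33 and 5.69 in DMSO and 13.5, 10.2 and 10.9 in ML-792, from raw counts of 0 to 11. The log2 difference of 1.27 ± 0.82 did not pass (adjusted p = 0.581, edgeR), and the share of all genes without overlap was not computed.

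Of the SUMO conjugation genes, 16 of 17 were tested in DMSO, and by day 7 1 had risen and 4 had fallen in total reads, with a median log2 fold change of -0.20. Of all genes tested, 39.8% were called at day 7 in DMSO. Topors, a ligase for both SUMO and ubiquitin, fell most with -1.31 ± 0.21 (log2, SE; adjusted p = 0.000126, edgeR). Sae1, a subunit of the enzyme that ML-792 inhibits, fell with -1.03 ± 0.20 (adjusted p = 0.000508, edgeR), and the ligases Nsmce2 and Pias1 fell with -1.18 and -0.61. In ML-792 against DMSO, Sumo3 was higher at day 1 and day 3 (1.12 ± 0.28 and 1.22 ± 0.28, adjusted p of 0.0192 and 0.00545 in edgeR), Pias1 was lower at day 3 (-0.39) and Nsmce2 at day 7 (-0.69). Of all genes, 7.9% were called between treatments at day 1, 15.6% at day 3 and 11.8% at day 7.

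Of the 3 deSUMOylating enzymes outside the SENP family, Desi1 rose at day 3 in DMSO by 1.80 ± 0.29 (log2, SE; adjusted p = 0.00016, edgeR). At day 7 the values ran from -0.38 for Desi2 to 0.75 for Desi1 and did not pass (adjusted p of 0.0505 and 0.0458, edgeR). Of the 14 genes of the NEDD8 pathway, on which Senp8 acts, 3 had risen and 0 had fallen at day 7 in DMSO, with a median of 0.29. On that day 39.8% of all genes were called in DMSO. Ube2m, a NEDD8-conjugating enzyme, had 1.31 ± 0.32 (adjusted p = 0.00356, edgeR), but its day 7 libraries spread from 983 to 2755 normalized reads (mean 1598 ± 1003, SD, n = 3) against 593 to 685 at day -2, and its value without the high library was not fitted. Cul1, a cullin, and Ube2f, another NEDD8-conjugating enzyme, rose by 0.83 ± 0.18 and 0.74 ± 0.17. The lowest value was that of the cullin Cul5, with -0.22 ± 0.23. Cul2, another cullin, was the only gene of this list called in ML-792 against DMSO, lower at day 3 with -0.83 ± 0.21 (adjusted p = 0.0121, edgeR). The share of all genes called between treatments at day 3 was 15.6%.

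Among the 7 nucleolar partners of Senp3, 1 had risen and 1 had fallen at day 7 in DMSO, where 39.8% of all genes were called. Wdr18 was the highest with 1.39 ± 0.23 (log2, SE; adjusted p = 0.000181, edgeR). The lowest by fold was Npm1, the nucleolar protein nucleophosmin, with -0.93 ± 0.40, which did not pass (adjusted p = 0.07, edgeR), and Tex10 fell with -0.92 ± 0.24 (adjusted p = 0.00547, edgeR).

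Among the genes whose total reads followed Senp2 most closely over the 24 libraries, of 9254 genes compared, were Prkar2a (Pearson r = 0.91) and Cab39 (0.91). For Senp5 the closest were Pdcl3 (0.92), Kctd5 (0.86) and Cyr61 (0.86). These are correlations of log2 normalized counts across libraries of all 8 groups, which share their scaling and their replicate letters, and they are given as a description.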

How the data were processed

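3T3-L1 cells in DMSO or ML-792 were profiled by QuantSeq and SLAMseq, with 3 biological replicates in each of 8 groups. The authors demultiplexed with bcl2fastq 2.17.1.14, per the labels, and mapped the reads with SlamDunk, using the mm10 genome and RefSeq 3′UTR coordinates. A read with 1 or more T-to-C conversions counted as labeled. The deposited tables hold raw counts per entry, and the authors applied no normalization to them. The tables each hold 6 columns that matched no sample and were not used.

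Here edgeR 4.0.16 (quasi-likelihood, robust, R 4.3.3) was fitted to all entries that passed filterByExpr (minimum count 10, minimum total 15), with TMM factors of the total reads for both readouts. Each time course used the 12 libraries of its treatment, and ML-792 against DMSO used all 24. P-values were adjusted by Benjamini-Hochberg over all entries tested, with thresholds of 0.01 for days and 0.1 for treatment. Normalized counts are scaled to the mean effective library size. Background shares use 1 entry per gene. The scripts were tested on simulated counts. DESeq2, the study's tool, no filter, 1 entry per gene, the next entry, a replicate block, leaving out each replicate, other scalings and other sample sets were tried. The depth was 13554718 to 27013352 total reads per library.

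Letters A to C were checked as pairs from the correlation of deviations from group means. In the ML-792 time course all 9 same-letter pairs of day -2 with a later day were above 0.1 (0.17 to 0.49). In the DMSO time course 6 of 9 were, and between treatments 9 of 12. The labels do not say what a letter shares.

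All 7 genes are named. The 3 genes most like each called gene, the highest and lowest of each list at day 7 in DMSO and those called between treatments are named too; the other called ligases and Tex10 were added after their values were seen. Some genes that this rule names are not reported here. The genes and lists were chosen with earlier results of these data known.

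Sequences are from RefSeq's GRCm38.p6, which is the mm10 assembly. The counts of T bases in the files equalled those of the genome for 7 of 7 Senp entries. Markers of macrophages, endothelium and muscle were also listed: 2 of 4, 1 of 3 and 2 of 3 had enough reads to be tested, and in DMSO at day 7 the macrophage marker Csf1r fell, the muscle marker Des rose and the endothelial marker Pecam1 did not pass (adjusted p = 0.569). Their summed normalized reads were 24.7 to 153, 0 to 19.7 and 16.8 to 544 per library.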

Additional observations from a re-analysis of the deposited data

Results flagged for a closer look

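Each value below is a mean log2 difference in total reads of ML-792 from DMSO where every ML-792 library lay on 1 side of the DMSO mean on 1 day and on the other side on another day. The libraries of ML-792 and DMSO overlapped in all of these comparisons except Senp7 on day 1. The share of all genes that meet this rule was not computed. The day by treatment interaction was tested for these genes in edgeR and did not pass. Before induction, 0 of the 13274 genes tested in total reads were called between ML-792 and DMSO.

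Senp2 differed by 0.236 on day 1, with ML-792 higher, and by -0.312 on day 3 (interaction adjusted p = 0.546, edgeR). Senp7 had -0.341 on day 1 against 0.199 on day 3 (interaction adjusted p = 0.601, edgeR). Senp5 had -0.237 before induction and then 0.0891 on day 1, with 0.291 on day 7 (interaction adjusted p = 0.663, edgeR). Senp6 had -0.123 before induction, then 0.0946 on day 1 (interaction adjusted p = 0.992, edgeR).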

How the results depend on the processing

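Of the 2 Senp genes called over the DMSO time course in total reads, 0 to 1 were called with a replicate left out and 0 with a log2 fold change above 1 required. With the next entry of a gene, where it had one with other counts to test, 1 was called over this time course. It was Senp2, on its chosen entry. With a replicate block 3 were called there, where 63.6% of all genes were, with Senp1 in addition (day 1, 0.66, adjusted p = 0.00125; day 7, -0.49, adjusted p = 0.00547, edgeR). Of the 0 called over the ML-792 time course, 1 was called by DESeq2, 1 with no filter, 1 with all 24 libraries in 1 fit, 4 with a replicate block, and 0 to 2 with a replicate left out. Between ML-792 and DMSO, where 0 were called, 1 was called with no filter (Senp3 at day 7) and 1 with a replicate block (Senp2 at day 3). In labeled reads, the 1 gene called in DMSO became 0 to 2 with a replicate left out and 0 when scaled by labeled reads. The 2 called in ML-792 became 1 with no filter, 0 to 1 with a replicate left out and 0 when scaled by labeled reads. The replicate block changed no other count of calls by over 1.5 times. The other 59 counts under alternatives stayed within 1.5 times of the main count, and no log2 fold change of a called gene changed sign. For the calls of single genes, 55 values kept the threshold and 31 lost it. The causes were not tested, other than fewer libraries where a replicate was left out. Labeled reads numbered 0 to 67 per library and Senp gene, which limits their comparisons. Shares of all genes called were computed for no alternative except the replicate block over the time courses in total reads.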
